A study of Mus musculus with 11 samples.

Results

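The 9 genes described here code for acute phase proteins or for close relatives of them: the serum amyloid A genes Saa3, Saa1 and Saa2, the lipocalin Lcn2, haptoglobin (Hp), Orm1, and the serpins Serpina3n, Serpina3g and Serpina3m. They were taken by symbol, as 9 of the 27998 genes of the 10X Chromium tables and of the 23997 genes of the Smart-seq2 tables. The members were chosen by their measured levels, with earlier results of these data known in which Saa3, Lcn2 and Hp were high after injury in the 10X cells and the plate wells, so the levels of the members are given as a description and carry no independent support for the choice. Because hepatocytes make many acute phase proteins, the hepatocyte transcripts Alb, Apoa1 and Ttr were followed beside them.

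Hepatic mesenchymal cells had been sorted as GFP+ CD45- CD102- cells from adult male Pdgfrb-BAC-eGFP mice on a C57BL/6 background, in which the Pdgfrb regulatory region on a bacterial artificial chromosome drives GFP, so only cells that had used this transgene entered any library. The 10X series held 5 libraries, each pooled from 3 mice: Healthy, 72 h after CCl4, and 6 weeks of CCl4 with the HSC isolation (termed protocol 2), and Healthy and 6 weeks of CCl4 with the PF isolation (protocol 1). The Smart-seq2 series held 6 plates with wells of Healthy mice (called Uninjured in the well layout), of mice given CCl4 for 6 weeks and of mice 14 days after bile duct ligation (BDL). CCl4, a hepatotoxin that kills the hepatocytes around the central vein, had been injected in olive oil, once for the 72 h library and repeatedly for the 6 week samples, whereas BDL injures the liver around the bile ducts.

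Clusters made without the members were named from marker lists as hepatic stellate cell (HSC)-like, fibroblast (FB)-like and vascular smooth muscle cell (VSMC)-like. After filtering, protocol 2 held 6850 HSC-like cells in the Healthy library, 7117 at 72 h and 5429 at 6 weeks, with 193 and 25 further cells of the 72 h and 6 week libraries in a small cluster, B13, that is described by its number because its fibroblast marker score, though the highest of its scores, was below that of every FB-like cluster of protocol 1. Protocol 1 held 4037 FB-like and 1620 VSMC-like cells in the Healthy library and 2637 and 2914 at 6 weeks. The libraries totalled 25965670 to 86664085 UMIs, and pairs of libraries shared 33 to 74 cell barcodes. On the plates, 2065 of 2292 wells were kept, with a median of 445490 reads, as 810 FB-like, 312 HSC-like, 916 VSMC-like and 27 unnamed wells in 17 portions, a portion being the wells of 1 mouse label on 1 plate.

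The acute phase response is the change in plasma proteins that follows injury or infection. It is driven by cytokines: interleukin 6 and its relatives signal through gp130 and STAT3, and interleukin 1 and tumour necrosis factor act through NF-kB, with C/EBP factors acting at many of the target promoters. Saa1 and Saa2 code for lipid-binding plasma proteins made chiefly by hepatocytes, and Saa3 for a relative known for its expression outside hepatocytes, in macrophages, fat and epithelia. Lcn2 captures bacterial iron carriers, haptoglobin binds free haemoglobin, Orm1 is a plasma lipocalin that carries small ligands, and the Serpina3 genes are the expanded mouse family of alpha-1-antichymotrypsin, of which Serpina3n is a secreted protease inhibitor and Serpina3g an intracellular one known from activated lymphocytes.

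In GRCm38, Saa3 (ENSMUSG00000040026) lay at chr7:46711998-46715700 on the minus strand, close to Saa1 (chr7:46740497-46742980, minus) and Saa2 (chr7:46751790-46754313, plus). The serpins formed a second cluster, with Serpina3g at chr12:104236245-104241939, Serpina3m at chr12:104338486-104394257 and Serpina3n at chr12:104406729-104414329, all on the plus strand. Lcn2 lay at chr2:32384633-32388252 (minus), Hp at chr8:109575128-109579172 (minus) and Orm1 at chr4:63344560-63348163 (plus). Saa1 and Saa2, the Serpina3 genes and Orm1 have near-identical relatives in the genome, so their counts depend on how reads shared between copies were assigned and are less certain than those of Saa3, Lcn2 and Hp.

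Promoter sequences of 6 of the 9 members were found in RefSeq (GRCm38.p6), each from 250 bases before the start site to 50 bases after it, 5' to 3' on the gene's strand. Those of Saa3, Lcn2, Saa1 and Serpina3n are shown because these members had the clearest differences in level, or, for Saa1, because it lies beside Saa3 and was far lower. Capitals mark matches, on either strand, to the NF-kB letters (GGG, any 5 bases, then CC), the C/EBP letters TTNNGNAA or the STAT letters TTCNNNGAA.
Saa3, chr7:46715627-46715926, minus strand: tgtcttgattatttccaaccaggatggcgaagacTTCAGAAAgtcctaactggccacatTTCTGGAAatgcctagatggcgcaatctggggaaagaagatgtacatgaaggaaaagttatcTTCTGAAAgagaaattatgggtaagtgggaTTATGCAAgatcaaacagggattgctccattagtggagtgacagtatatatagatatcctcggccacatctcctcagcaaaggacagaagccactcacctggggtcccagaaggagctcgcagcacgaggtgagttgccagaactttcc
Lcn2, chr2:32387690-32387989, minus strand: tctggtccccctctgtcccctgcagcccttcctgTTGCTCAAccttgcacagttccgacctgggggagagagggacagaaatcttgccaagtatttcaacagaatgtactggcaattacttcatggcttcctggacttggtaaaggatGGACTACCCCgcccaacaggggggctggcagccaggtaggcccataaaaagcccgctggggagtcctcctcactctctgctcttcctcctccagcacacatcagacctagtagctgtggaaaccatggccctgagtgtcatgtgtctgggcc
Saa1, chr7:46742931-46743230, minus strand: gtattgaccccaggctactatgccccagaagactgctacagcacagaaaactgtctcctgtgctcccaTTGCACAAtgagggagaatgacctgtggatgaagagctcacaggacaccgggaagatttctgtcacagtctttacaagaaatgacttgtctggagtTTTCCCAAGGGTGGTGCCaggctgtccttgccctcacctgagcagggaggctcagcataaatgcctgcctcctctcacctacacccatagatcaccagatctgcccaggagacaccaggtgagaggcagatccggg
Serpina3n, chr12:104406458-104406757, plus strand: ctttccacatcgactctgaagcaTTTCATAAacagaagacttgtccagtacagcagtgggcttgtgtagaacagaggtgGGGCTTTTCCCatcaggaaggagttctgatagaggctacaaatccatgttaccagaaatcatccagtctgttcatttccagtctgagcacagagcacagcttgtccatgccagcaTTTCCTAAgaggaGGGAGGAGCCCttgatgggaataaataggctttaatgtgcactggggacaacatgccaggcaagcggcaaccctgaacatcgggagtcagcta

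The Saa3 window held 4 C/EBP matches, the nearest beginning 99 bases before the start site, and no NF-kB or STAT match. The Lcn2 window held 1 NF-kB match, beginning 102 bases before the start site, and 1 C/EBP match. The Saa1 window held 1 NF-kB match next to 1 of its 2 C/EBP matches, and the Serpina3n window held 2 C/EBP matches and 4 NF-kB matches, which are 2 pairs overlapping on opposite strands. Of the 2 other windows, that of Saa2 held 1 NF-kB and 1 C/EBP match and that of Serpina3g 1 NF-kB match overlapping 1 of 3 C/EBP matches, and the only STAT match of the 6 windows. Among all 32851 promoters of the same length, 50.8% held the NF-kB letters, 40.7% the C/EBP letters and 8.30% the STAT letters. A match states only that the letters are present.

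In HSC-like cells, which store vitamin A and become matrix-producing cells after injury, Saa3 was not detected in the Healthy library, was rare at 72 h and was found in 33.4% of cells after 6 weeks of CCl4. Saa3 had 0 UMIs in 6850 Healthy cells, which allows up to 0.0647 UMIs per 1000000 UMIs (CPM) and a share of up to 0.0438% of cells with a UMI, a limit on detection and not on cells that express the gene. It measured 2.20 CPM at 72 h (95% interval 1.89 to 2.54) and 94.4 CPM at 6 weeks (91.7 to 97.0), and 0.520% of cells had a UMI at 72 h. With every cell thinned to 2000 UMIs the shares were 8.25% at 6 weeks and 0.211% at 72 h, in the same order as without thinning. The 6 week level was at least 1459-fold the Healthy level, or at least 931-fold with the cell of highest count left out of each library, and the 72 h level at least 34.0-fold. Without the cells that held more than 10 Saa3 UMIs, 2 at 6 weeks and 5 at 72 h, the levels were 44.7 CPM (at least 691-fold Healthy) and 0.717 CPM (at least 11.1-fold). The 25 cells of B13, not counted here, held 19001 Saa3 UMIs of the 6 week library, and the part of RNA free in the suspension in the HSC-like share and level was not tested. There is 1 library per condition and protocol, so these folds have no replicate check, no test was possible, and all intervals cover counting error only.

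Lcn2 followed the same order at lower levels, with 0 UMIs in the Healthy library (up to 0.0647 CPM), 0.871 CPM at 72 h and 10.8 CPM at 6 weeks (9.89 to 11.7), at least 167-fold above Healthy. Only 2 cells held 343 of the 6 week UMIs of Lcn2, and without them the level was 4.15 CPM, at least 64.2-fold above Healthy. Hp was detected in all 3 libraries, at 1.75 CPM in Healthy, 2.26 at 72 h and 9.59 at 6 weeks, 5.49-fold above Healthy at 6 weeks (4.34 to 7.04). At 72 h the interval of its ratio included equality (1.29, 0.991 to 1.70). The hepatocyte members were low throughout: at 6 weeks Saa1 reached 4.15 CPM, Saa2 2.61 and Orm1 1.99, from 0.108, 0.0862 and 0.560 in Healthy. Their ratios at 6 weeks were 38.5 for Saa1 (16.2 to 120), 30.2 for Saa2 (11.5 to 112) and 3.55 for Orm1 (2.29 to 5.68), resting on few UMIs in the Healthy library.

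Of the serpins, Serpina3n was already far above its Healthy level at 72 h, though still low and below its 6 week level. It measured 0.237 CPM in Healthy, 6.79 at 72 h and 26.6 at 6 weeks, which is 28.6-fold (15.9 to 57.7) and 112-fold (62.4 to 225) above Healthy, and 18.1% of HSC-like cells had a UMI at 6 weeks. Serpina3g stood apart from the other members, since it was abundant in uninjured HSC-like cells: 80.7 CPM in Healthy, 94.6 at 72 h and 135 at 6 weeks, found in 28.1%, 42.1% and 50.9% of cells. Its 6 week level was 1.67-fold the Healthy level (1.61 to 1.74). Serpina3m stayed near the limit of detection, at 0.108, 0.287 and 0.212 CPM. Among members with at least 1 CPM in either library, 7 of 8 were at least 2-fold higher at 6 weeks, where 4.78% of all 11843 genes compared were, and 2 of 4 at 72 h, where 10.9% of 12154 genes were. The median member difference was 5.09 on the log2 scale at 6 weeks and 2.61 at 72 h, against -0.20 and -0.17 over all genes compared. Several members met that minimum through the injured library alone, so these counts and medians are a description.

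**Figure D1:**
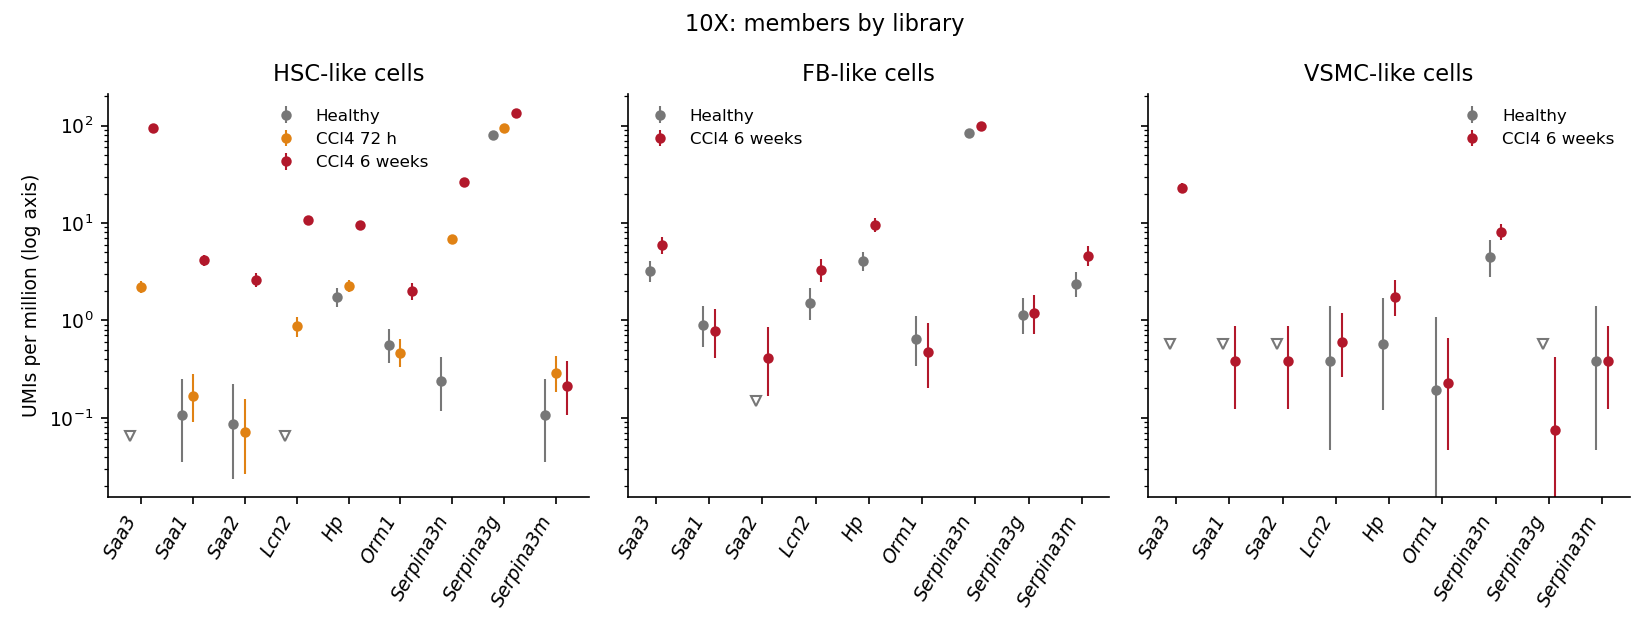
Level of each member (CPM, log axis) in the HSC-like, FB-like and VSMC-like cells of each 10X library, as points with 95% Poisson intervals that cover counting error only, and as open triangles at the floor of 3 counts where a library had no UMI. Saa3 goes from 0 UMIs in Healthy HSC-like cells to 94.4 CPM at 6 weeks, while Serpina3g lies between 80.7 and 135 CPM in these cells.

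FB-like cells, the collagen-rich cells of the portal tract, differed less between conditions than HSC-like cells. Saa3 measured 3.18 CPM in Healthy and 5.92 at 6 weeks, a ratio of 1.86 (1.35 to 2.59). A single cell of cluster A5 held 51 of the 65 UMIs counted for Saa3 in the whole Healthy library, and with the cell of highest count left out of each library the ratio was 5.77, and without every cell of more than 10 Saa3 UMIs it was 4.31. Lcn2 measured 1.49 and 3.31 CPM (ratio 2.22, 1.40 to 3.59) and Hp 4.07 and 9.58 CPM (2.35, 1.79 to 3.11). Serpina3n was the member of highest level in these cells and was so without injury, at 83.6 CPM in Healthy and 99.7 CPM at 6 weeks (ratio 1.19, 1.12 to 1.28). Serpina3m measured 2.38 and 4.61 CPM (ratio 1.94, 1.33 to 2.83), Serpina3g 1.14 and 1.18 CPM, Saa1 0.894 and 0.769 CPM, and Orm1 0.646 and 0.473 CPM. In all, 2 of 6 members compared were at least 2-fold higher, where 3.27% of 12730 genes were.

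In VSMC-like cells, the contractile cells of the vessel wall, Saa3 had 0 UMIs in Healthy and measured 23.0 CPM at 6 weeks, at least 39.9-fold higher. That value rested on 1 cell of cluster A15 with 274 UMIs, 67.8% of all Saa3 UMIs of the library; without the cell of highest count in each library the level was at least 3.94-fold the Healthy level. Serpina3n measured 4.43 CPM in Healthy and 8.10 at 6 weeks (ratio 1.83, 1.16 to 3.01), and Hp 0.577 and 1.74 CPM (3.02, 0.912 to 15.7). Here 2 of 3 members compared, Saa3 and Hp, were at least 2-fold higher, where 5.53% of 12335 genes were, and both met the minimum of 1 CPM through the injured library alone. Hepatocyte transcripts were higher in the same cells, with 3 of 5 hepatocyte genes at least 2-fold higher (Apoa1 2.76-fold, Ttr 2.83-fold and Trf 2.42-fold) and Alb at 8.10 against 4.43 CPM, and their part in the Hp value was not tested. Set side by side in the Healthy 10X libraries, Serpina3n measured 83.6 CPM in FB-like and 0.237 in HSC-like cells, and Serpina3g 1.14 CPM in FB-like and 80.7 in HSC-like cells. These values come from different isolation protocols as well as different cells, which cannot be told apart.

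Most Saa3 of the 6 week protocol 2 library lay in very few cells. Of its 23891 Saa3 UMIs, 90.3% came from 21 cells with more than 10 UMIs each, 19 of them in cluster B13 and 2 in cluster B10, and without them the library's level was 44.7 CPM. The highest cell held 4920 Saa3 UMIs, 14.6% of all its UMIs. Lcn2 and Hp were concentrated in the same way, with 15 cells holding 85.4% of 1621 Lcn2 UMIs and 11 cells 67.2% of 1572 Hp UMIs. Serpina3n was spread more evenly, with 11 cells holding 14.2% of 1626 UMIs.

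Within B13 at 6 weeks, Saa3 measured 45922 CPM and was found in 20 of 25 cells, Lcn2 2569 CPM in 18 cells and Hp 2598 CPM in 20 cells. Serpina3n reached 602 CPM in 22 cells, whereas Serpina3g, at 62.8 CPM in 13 cells, was below its level in the HSC-like cells of that library. Saa1 (16.9 CPM) and Saa2 (2.42 CPM) stayed low and Orm1 was not detected. Of the hepatocyte transcripts, Alb measured 7.25 CPM, and Apoa1, Ttr, Apob and Serpina1c had no UMI. Trf, on the same list of hepatocyte genes, measured 2011 CPM in 20 cells, against 128 CPM in the HSC-like cells of that library. Because the cluster's own leading genes include Saa3, Lcn2 and Hp, these values describe its cells and are no test. The 193 cells of B13 at 72 h held far less, with 40.5 CPM of Saa3 in 6 cells, 15.6 of Lcn2, 0.692 of Hp and 49.1 of Serpina3n.

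The B13 cells of the 6 week library carried more of the fibroblast markers and less of the stellate cell markers than HSC-like cells of the same library. All 8 fibroblast markers were higher, among them Fbln2 at 459 against 1.49 CPM, in 21 of the 25 cells, and Gpx3 at 1660 against 343, in all 25, though Clec3b (389 against 0.695) was found in only 4 cells and Cd34 and Mfap4 in 12 each, and all 7 stellate cell markers were lower, with Lrat, which esterifies retinol for storage, at 191 against 1532 and Reln at 176 against 1288. The mesothelial genes Upk3b, Upk1b, Lrrn4 and Muc16 had no UMI and Msln 2.42 CPM, though Wt1, a transcription factor of mesothelium and of some fibroblasts, measured 162 CPM. Some other secreted or inflammatory genes were higher too: complement C3 at 2480 against 26.6 CPM, Timp1 at 1803 against 40.0, the alarmin Il33 at 524 against 33.5, the chemokine Cxcl5 at 261 against 4.57 and the oncostatin M receptor Osmr at 196 against 52.2. Others were lower, among them Cxcl10 at 19.3 against 342 CPM, Ccl2 at 261 against 412, Irf1 at 19.3 against 176 and Socs3 at 271 against 613. Cxcl2, Icam1 and Vcam1 were lower as well. Col1a1, the main fibrillar collagen chain, measured 7371 against 597 CPM.

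**Figure D2:**
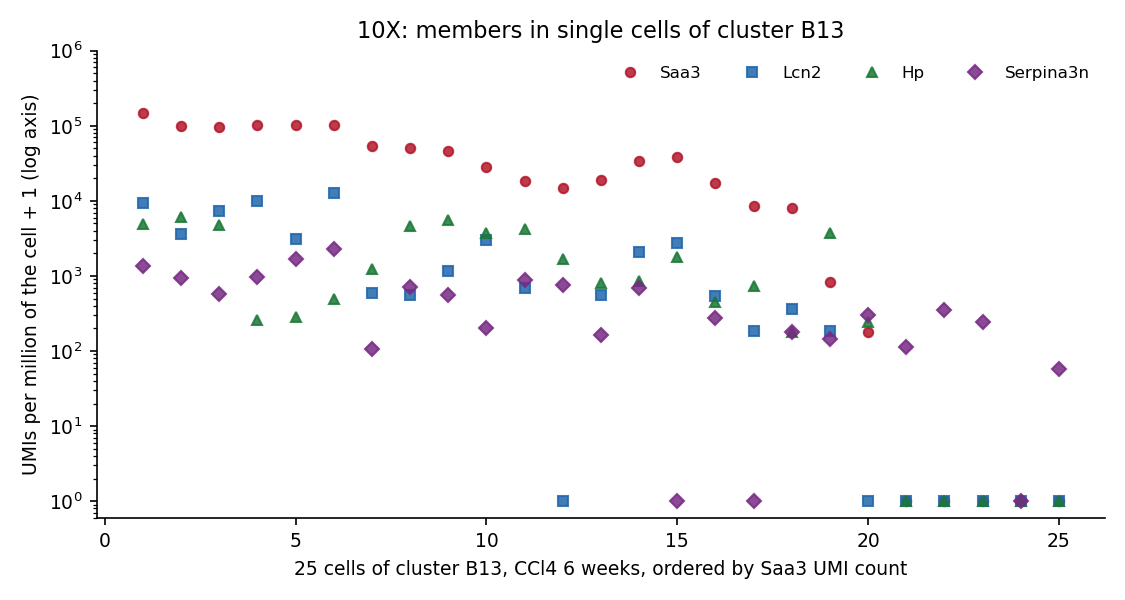
CPM plus 1 (log axis) of Saa3, Lcn2, Hp and Serpina3n in each of the 25 cells of cluster B13 of the 6 week protocol 2 library, ordered by Saa3 count, with a gene that had no UMI drawn at 1. Saa3 was found in 20 cells, Lcn2 in 18, Hp in 20 and Serpina3n in 22.

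In the remaining cells of that library Saa3 was low and nearly even. It measured 43.1 CPM with 37.7% of cells in cluster B4, 46.1 CPM with 36.5% in B6, 35.5 CPM with 29.0% in B7 and 49.1 CPM with 24.1% in B9. Cluster B10 measured 330 CPM with 32.7% of cells, but 43.1 CPM without its 2 cells of more than 10 Saa3 UMIs, within the range of the other clusters. No cluster of this library lacked Saa3, so no cell type in it gives the background of free RNA, and the part of free RNA in these even levels was not tested. Counts of Lcn2 were 7.75% of those of Saa3 in B4, 9.01% in B6, 8.74% in B10 and 5.59% in B13, but 50.3% in B9, where 1 cell held 145 Lcn2 UMIs, and those of Hp were 13.5% in B4, 28.2% in B6, 3.85% in B10 and 5.66% in B13. After thinning to 2000 UMIs, 7 HSC-like cells had both Saa3 and Lcn2, where the product of the shares gives 4.54, and 4 had both Saa3 and Hp, where it gives 8.50. In B13, 19 thinned cells had Saa3, 14 Lcn2 and 14 both, and 17 of the 18 cells with Hp had Saa3.

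Stellate cells differ along the axis from portal tract to central vein, and several members differed between groups set by a score for this axis. HSC-like cells were split by a score of 51 portal and 29 central genes that did not use the members. The position of the cells in the tissue was not measured. Serpina3g was higher in the portal group of every library, at 118 CPM in Healthy, 2.31-fold the central group (2.16 to 2.47), with ratios of 2.29 at 72 h and 1.84 at 6 weeks. At 6 weeks Serpina3n was higher in the central group, at 14.9 CPM portal against 31.8 central and in 11.4% against 21.2% of cells. Saa3 measured 43.9 CPM portal against 117 central but was found in 33.0% and 33.6% of cells, and Lcn2 4.44 against 13.6 CPM in 4.07% and 3.40% of cells. For each gene the gap in level lay in 2 central cells with more than 10 of its UMIs: without them the central group measured 45.0 CPM of Saa3 and 4.03 of Lcn2, close to the portal levels. The plasma protein genes went the other way at 6 weeks, with portal to central ratios of 1.95 for Saa1, 2.08 for Saa2, 2.67 for Orm1 and 1.35 for Hp. At 72 h Serpina3n was higher in the portal group (11.1 against 5.70 CPM) and Saa3 nearly even (ratio 1.06), while Hp measured 1.00 CPM portal against 2.57 central (ratio 0.390, 0.222 to 0.643) but 0.989 CPM in the central group without 1 cell that held 106 Hp UMIs. The direction of Serpina3n along the axis was thus not the same at both times. Each split compares cells of 1 library and has no replicate.

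At 6 weeks, the levels of Saa1, Saa2, Orm1 and Hp were higher in HSC-like cells that held hepatocyte RNA. Those of Saa3, Lcn2, Serpina3n and Serpina3g at that time were close with and without it once single high cells were left out. Alb measured 23.3, 11.8 and 20.2 CPM in HSC-like cells of the Healthy, 72 h and 6 week libraries, Apoa1 12.4, 12.7 and 6.12, and Ttr 7.85, 3.68 and 10.2, so their order over the libraries was not that of Saa3. At 6 weeks, the 4180 HSC-like cells without a UMI of these genes held 110 CPM of Saa3 and 13.2 of Lcn2, against 47.1 and 3.64 in the 1249 cells with one. Without the 2 cells of more than 10 UMIs of each gene, all of them cells without hepatocyte RNA, the first values were 43.9 CPM of Saa3 (41.8 to 46.0) and 4.33 of Lcn2 (3.70 to 5.03). Saa1, Saa2 and Orm1 were higher in cells with hepatocyte RNA, at 7.29 against 3.08 CPM, 5.09 against 1.76 and 3.72 against 1.40, and Hp was 12.6 against 8.56. Serpina3n (23.2 against 27.7) and Serpina3g (139 against 134) were close in both. At 72 h, Hp was 13.6 CPM in the 639 cells with hepatocyte RNA and 0.958 in the 6478 without. Without 1 cell of 106 Hp UMIs, the level with hepatocyte RNA was 1.29 CPM (0.646 to 2.31), an interval that includes 0.958. A single B7 cell of that library, called as a doublet, held 55.5% of its 191 Hp UMIs, 62.4% of its Alb and 74.2% of its Apoa1. Saa3 at 72 h measured 0.772 CPM (0.586 to 0.998) without hepatocyte RNA and 0.234 (0.0283 to 0.844) with it. These Saa3 values leave out the cells of more than 10 Saa3 UMIs. In FB-like cells at 6 weeks Saa1 measured 5.21 CPM with and 0.325 without hepatocyte RNA, and Saa3 7.82 and 5.73. Both FB-like cells of more than 10 Saa3 UMIs were cells without hepatocyte RNA. With these 2 cells left out, Saa3 measured 2.28 CPM (1.59 to 3.17) without hepatocyte RNA, below the level with it.

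**Figure D3:**
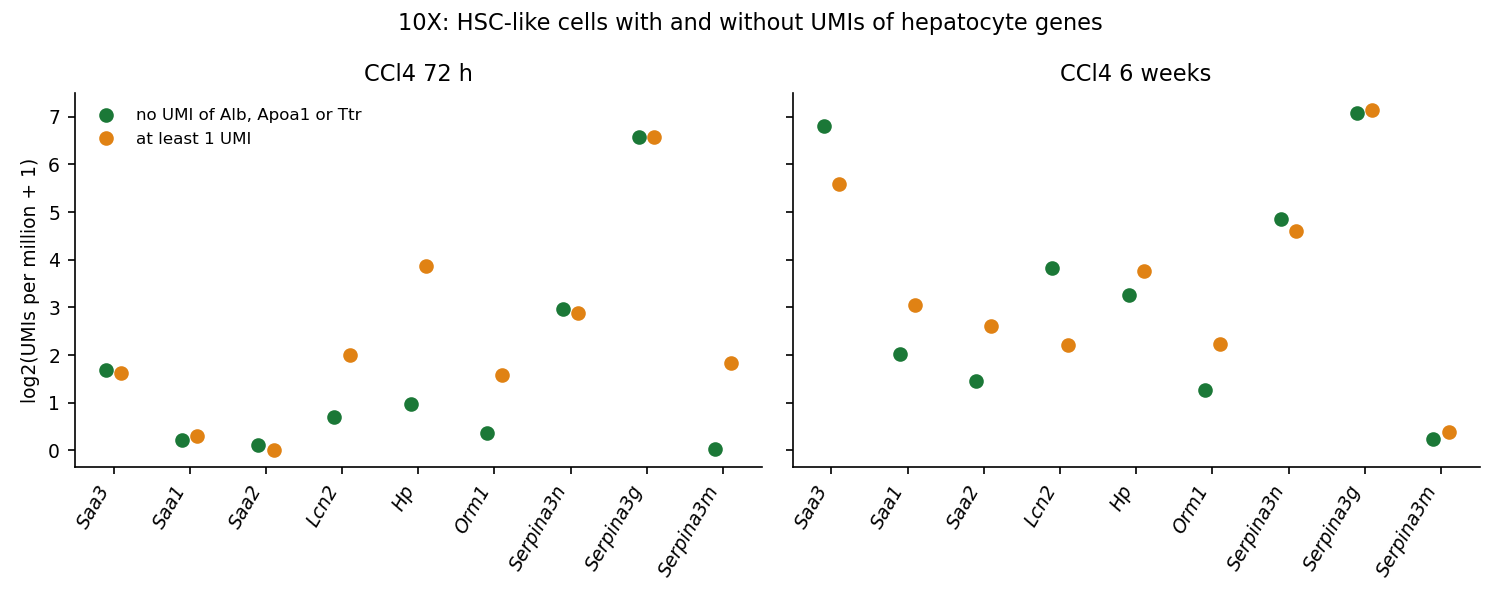
Level of each member, as log2(CPM + 1), in HSC-like cells of the 72 h and 6 week libraries without and with a UMI of Alb, Apoa1 or Ttr, 1 point per member and class of cells. At 6 weeks Saa1, Saa2, Orm1 and Hp are higher with hepatocyte RNA; Saa3 is drawn at 110 CPM without it and 47.1 with it, where 2 cells account for the gap (43.9 CPM without them).

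Genes of the inducing pathway, from lists drawn up by function, were mostly closer to 1-fold at 6 weeks. In HSC-like cells at 6 weeks, 3 of 10 other acute phase genes, 3 of 12 cytokine receptor genes and 1 of 14 signalling genes were at least 2-fold higher, and 0, 1 and 1 at least 2-fold lower. Over all genes compared at 6 weeks, 4.78% were at least 2-fold higher and 2.64% lower. Osmr was 52.2 against 21.6 CPM (2.42-fold) and the kinase Pim1, a target of STAT signalling, 145 against 34.6 (4.19-fold), whereas the NF-kB inhibitor Nfkbia was 0.521-fold and the chemokines Ccl2 (412 against 1334 CPM) and Ccl7 were 0.309-fold and 0.451-fold their Healthy levels. Of the chemokines, 0 of 9 were at least 2-fold higher and 3 lower. Matrix and activation genes were higher in 4 of 6, with Acta2 at 5.98-fold and Col1a1 at 2.97-fold. At 72 h, 6 of 6 matrix genes were higher (Acta2 30.5-fold, Lox 31.1-fold), and other acute phase genes were higher in 2 and lower in 3 of 10, with complement factor Cfb at 0.148-fold and ceruloplasmin (Cp) at 0.562-fold. Of the cytokine genes, 3 of 4 compared at 72 h were at least 2-fold higher. Il6, Lif and Il11 measured 1.15, 1.12 and 1.35 CPM there, near the minimum of 1 CPM. Receptor genes at 72 h were higher in 1 and lower in 3 of 12, signalling genes in 1 and 4 of 14, and chemokines in 0 and 4 of 9. Over all genes compared at 72 h, 10.9% were at least 2-fold higher and 9.81% lower. In FB-like cells at 6 weeks, C3 measured 1029 against 657 CPM, 1.57-fold, and Ccl2 was 0.307-fold.

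On the Smart-seq2 plates, Saa3 separated the CCl4 portions from all others in FB-like wells. It measured 11462, 9544, 6096 and 8785 reads per 1000000 reads (RPM) in the 4 CCl4 portions on plates 3 and 5. In the 5 BDL portions it measured 0.503, 0, 0, 1.83 and 34.1 RPM, and in the 5 Uninjured portions of plates 1 to 5 it measured 0, 0, 1.25, 0.0382 and 1.56 RPM. All 4 CCl4 portions thus lay above all others, and the BDL and Uninjured portions overlapped. The BDL portions were on other plates than the CCl4 portions, so plate and injury cannot be told apart where their levels are ranked. The fitted difference of BDL from Uninjured was 9.33 ± 1.63 (edgeR adjusted p = 0.144, DESeq2 0.0287) and was called in 5 of 26 settings. The fitted difference of CCl4 from Uninjured was 12.6 ± 1.29 on the log2 scale (SE), with an adjusted p of 0.00711 by edgeR's quasi-likelihood test over 13858 genes with plate as a term, and Saa3 was higher in 4 of 4 portions. Only 2 genes passed in this comparison (0.0144% of those tested), Saa3 and Serpinb2, a protease inhibitor. The call was lost without the Uninjured portion of plate 3 (adjusted p = 0.166) or of plate 5 (0.322), without the BDL portion of plate 4 (0.0539), without plate 3 (0.342) or plate 5 (0.825), and over all retained wells of a portion (0.292), with log2 differences of 10.5 to 13.9 under every alternative.

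Lcn2 and Hp had the same order with smaller gaps. Lcn2 measured 1268, 812, 602 and 1990 RPM in the CCl4 portions, 241, 3.86, 21.6, 80.4 and 265 RPM after BDL, and 10.3, 0, 7.31, 3.59 and 13.8 RPM in the Uninjured portions. Hp measured 1996, 526, 976 and 1638 RPM after CCl4, 41.2, 19.3, 19.6, 172 and 156 RPM after BDL, and 0, 0, 1.38, 12.3 and 7.26 RPM in the Uninjured portions. Both were higher in every CCl4 portion than in every BDL and Uninjured portion, Hp was also higher in every BDL portion than in every Uninjured one, and Lcn2 of BDL overlapped the Uninjured portions. Neither passed in edgeR: for CCl4, the differences were 6.88 ± 1.78 for Lcn2 (adjusted p = 0.417) and 8.50 ± 1.79 for Hp (0.267), and DESeq2 gave adjusted p-values of 0.000625 and 6.56e-06. For BDL they were 5.40 ± 1.41 (edgeR 0.313, DESeq2 0.000761) and 7.20 ± 1.60 (edgeR 0.180, DESeq2 2.66e-08).

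Serpina3n overlapped between the 2 injuries. It measured 645, 3614, 3379, 5086 and 2422 RPM after BDL, 1467, 784, 621 and 2959 RPM after CCl4, and 121, 370, 133, 540 and 65.0 RPM in the Uninjured portions. Every injured portion lay above every Uninjured portion, and BDL and CCl4 overlapped. The difference from Uninjured was 3.39 ± 0.801 for BDL (edgeR adjusted p = 0.217, DESeq2 4.76e-06) and 3.88 ± 0.964 for CCl4 (0.399 and 1.09e-05), and BDL differed from CCl4 by -0.50 ± 1.07 (edgeR adjusted p = 1). Serpina3m ranged from 4.38 to 300 RPM after BDL and 5.67 to 118 after CCl4, against 0 to 18.1 RPM in Uninjured portions, and Serpina3g from 16.2 to 112, 46.0 to 153 and 2.56 to 58.7 RPM. The highest Uninjured values of Serpina3g, 58.7 and 20.1 RPM on plates 1 and 2, came to 98.5% and 70.9% from 1 well each. Saa1 reached at most 6.91 RPM and Saa2 6.19 RPM in the CCl4 portions, and Orm1 was listed at 0 there, so Saa1, Saa2 and Orm1 stayed near 0 in the wells with the highest Saa3.

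In the edgeR test, 0 of 8 members passed for BDL, where 0% of 13858 genes did, 1292 genes were under an unadjusted p of 0.05 and DESeq2 called 696. For CCl4, 1 of 8 passed, with 674 genes under an unadjusted 0.05 and 336 called by DESeq2. Between BDL and CCl4 no gene passed (0%, 582 under an unadjusted 0.05, 211 by DESeq2), and the difference for Saa3 was -3.30 ± 3.56. By position of the portions alone, 5 of 8 members were higher in all CCl4 than in all Uninjured portions, namely Saa3, Saa1, Lcn2, Hp and Serpina3n, where 4.02% of all genes were. For Saa1 the lowest CCl4 portion was at 1.07 RPM and the highest Uninjured one at 1.05, of which 92.6% came from 1 well. For BDL this was 2 of 8, Hp and Serpina3n, where 1.13% were, and 4 of 8 members, Saa3, Saa1, Lcn2 and Hp, were lower in all BDL than in all CCl4 portions, where 2.65% were. No plate held both injuries, so plate and injury cannot be told apart in the ranking of BDL against CCl4 portions. The position rule set both injuries against all Uninjured portions. In the fit, plate was a term, so BDL was compared with Uninjured within plates 1, 2 and 4 and CCl4 within plates 3 and 5. The fitted differences of BDL and CCl4 thus shared the dispersion estimate but no Uninjured portion. Fits for genes near 0 in a whole group depend on the prior count. A p that missed the threshold does not show that the conditions did not differ. Nothing states that the portions of different plates came from different mice beyond their labels, so p-values measure the spread between portions.

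**Figure D4:**
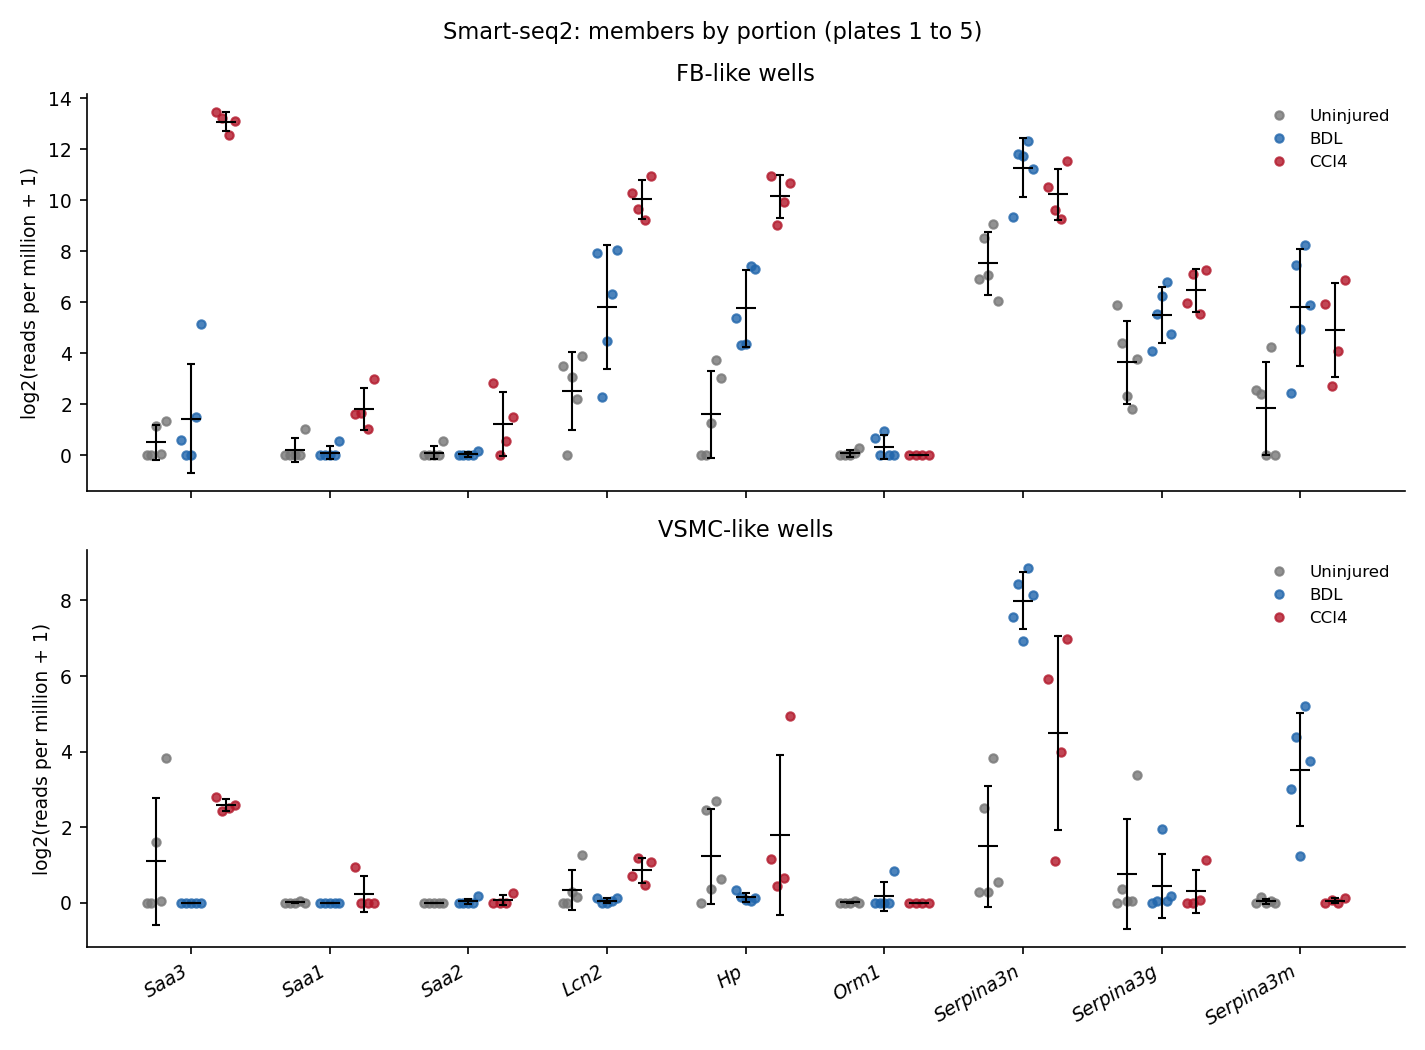
Level of each member, as log2(RPM + 1), in FB-like wells (top) and VSMC-like wells (bottom) of the Smart-seq2 portions of plates 1 to 5, with 1 point per portion and bars for the mean and SD of each condition. In FB-like wells Saa3 lies between 6096 and 11462 RPM in the 4 CCl4 portions and at most at 34.1 RPM elsewhere, while Serpina3n of the 5 BDL portions overlaps that of the CCl4 portions.

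The high CCl4 levels came from a part of the wells. Saa3 exceeded 100 RPM in 121 of 255 CCl4 FB-like wells (47.5%), in 5 of 300 BDL wells and in 0 of 236 Uninjured wells. The 121 wells had a median of 16901 RPM and the other 134 a median of 3.67 RPM, with only 13 wells between 100 and 1000 RPM, so the wells fell into high and low ones with few between. Lcn2 exceeded 100 RPM in 120 CCl4, 51 BDL and 5 Uninjured wells, Hp in 138, 35 and 2, and Serpina3n in 207, 217 and 90. High Saa3 and high Lcn2 were found together in 104 CCl4 wells, where the product of their shares gives 56.9, and high Saa3 and Hp in 113, where it gives 65.5; for Saa3 and Serpina3n the values were 109 and 98.2. Across the 255 wells, which share 4 portions, Spearman's rho with Saa3 was 0.767 for Lcn2, 0.760 for Hp and 0.305 for Serpina3n.

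**Figure D5:**
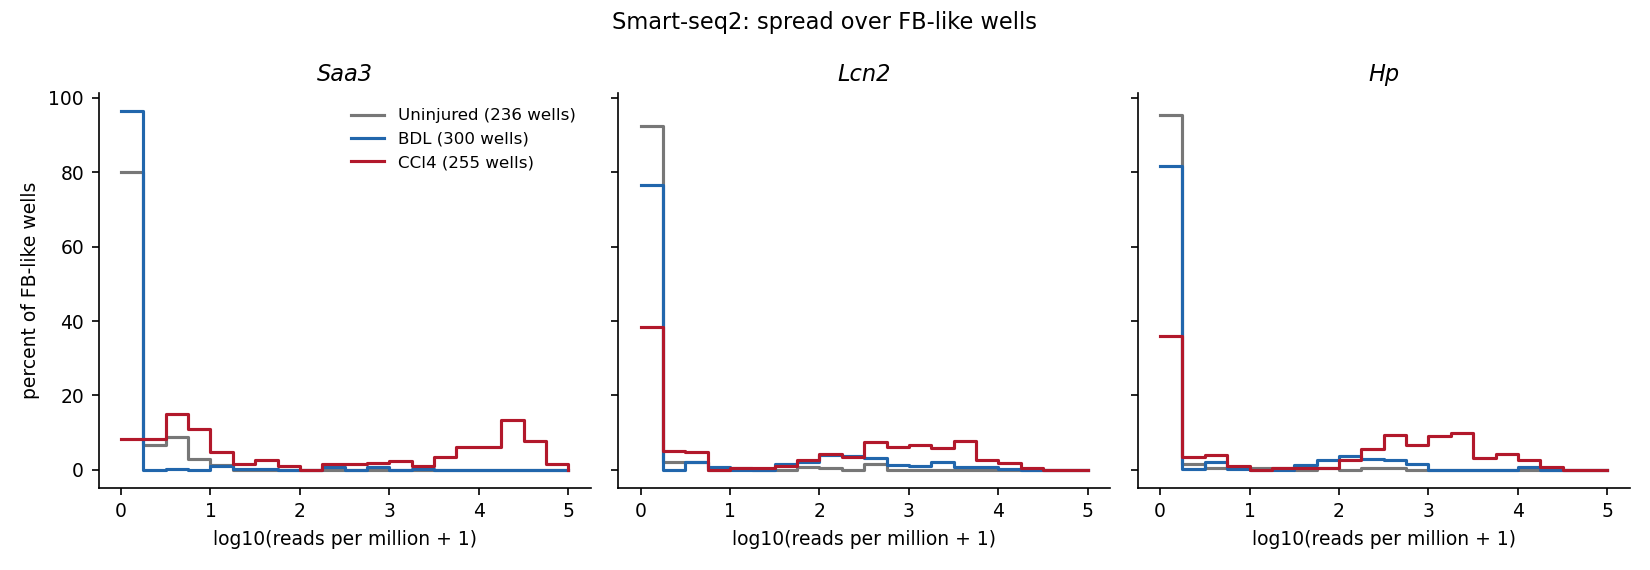
Percent of FB-like wells (vertical axis) by their level of Saa3, Lcn2 and Hp, as log10(RPM + 1) (horizontal axis), with 1 line per condition. Of the 255 CCl4 wells, 121 lie above 100 RPM of Saa3, against 5 of 300 BDL and 0 of 236 Uninjured wells.

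These wells belonged mostly to a single cluster, W8, made without the members. Because its own leading genes include Saa3, Hp and Lcn2, the values of W8 describe its wells and are no test. W8 held 154 wells, of which 132 were from CCl4, 20 from BDL and 2 from Uninjured mice, and measured 14965 RPM of Saa3, 2002 of Lcn2 and 2307 of Hp. It made up 33.3% to 69.1% of the FB-like wells of the CCl4 portions, 0% to 8.40% after BDL and 0% to 5.26% in Uninjured portions, plate 6 included. By level, hepatocyte transcripts were also highest in W8 among the clusters, with Alb at 471 RPM in 14.3% of wells, Ttr at 136 and Apoa1 at 61.0, where Alb was at most 27.4 RPM elsewhere. By share of wells, Alb (17.0%) and Apoa1 (6.73% against 1.95% in W8) were higher in the HSC-like cluster W1, and Ttr was lower there (5.77% against 9.74%). Of all FB-like wells of plates 1 to 5, only 1 CCl4 and 1 BDL well exceeded 10000 RPM of Alb. In its 43 CCl4 wells of plate 3, Alb, Apoa1 and Ttr had no read and Saa3 measured 26243 RPM. Wt1 measured 426 RPM in W8, with reads in 86.4% of its wells, while the mesothelial genes Msln and Upk3b measured 27.6 and 36.7 RPM, against 4612 and 2789 RPM in the unnamed cluster W11. In CCl4 wells of plates 3 and 5, Saa3 was 4592 and 753 RPM in cluster W5, but 19.7 and 4.23 in W3, 4.18 and 2.99 in W7, and 2.30 to 8.40 in the VSMC-like clusters. The low level was also seen in Uninjured wells of these plates: 42.2% of Uninjured FB-like wells on plate 3 and 46.6% on plate 5 had a Saa3 read, against 0% to 1.89% on plates 1, 2 and 4, which held no CCl4 wells. The part of reads passing between wells of a plate was not tested. Cluster W11 held high Saa3 as well, at 44998 RPM in 2 CCl4 wells of plate 3 and 9272 RPM in 17 of plate 5. After 6 weeks of CCl4 the highest Saa3, Lcn2 and Hp were thus in cluster B13 in the HSC isolation. On the plates, high levels of these 3 genes were found in both W8 and W11. The FB-like cells of the 10X protocol 1 library measured only 5.92 CPM of Saa3 against 6096 to 11462 RPM in CCl4 FB-like wells, in other units, and the cause of that gap was not tested.

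The high Saa3 levels were also found in wells with no hepatocyte read. In FB-like wells without any read of Alb, Apoa1 or Ttr, Saa3 still measured 12025, 10160, 5962 and 8995 RPM in the 4 CCl4 portions. After BDL, the order differed between portions and genes. In the first BDL portion of plate 1, Lcn2 was 82.9 RPM in wells without hepatocyte reads and 1609 RPM in the 11 with them. Hp in that portion went the other way, at 42.8 against 27.4 RPM. The BDL portion of plate 4 held Lcn2 at 69.0 against 993 RPM and Hp at 32.5 against 615 RPM. For the second BDL portion of plate 1, where 2 wells had such reads, Lcn2 was 4.60 against 0 RPM and Hp 16.6 against 33.2 RPM. On plate 2, the first BDL portion had 1 such well, with Lcn2 at 21.97 against 0 RPM and Hp at 19.96 against 0 RPM. The part of hepatocyte RNA in the BDL levels of Lcn2 and Hp was not tested.

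VSMC-like wells showed a serpin pattern with little Saa3. Serpina3n measured 189, 347, 121, 467 and 284 RPM in the BDL portions, 59.5, 1.14, 14.8 and 125 RPM after CCl4, and 0.209, 4.65, 0.227, 13.2 and 0.473 RPM in Uninjured portions. Serpina3m measured 7.13, 19.8, 1.38, 35.9 and 12.5 RPM after BDL and at most 0.105 RPM elsewhere. All 5 BDL portions were above all Uninjured ones for both, the only 2 of 5 members tested of which this held, where 1.37% of 13036 genes were so placed. The BDL differences were 6.46 ± 1.54 for Serpina3n (edgeR adjusted p = 0.447, DESeq2 1.69e-05) and 8.53 ± 2.03 for Serpina3m (0.447 and 4.27e-06). No member passed in edgeR, where 1 gene, Sparcl1, passed for BDL (0.00767%, 985 under an unadjusted 0.05, 385 by DESeq2), none for CCl4 (0%, 474 and 192) and none between BDL and CCl4 (0%, 545 and 170). Saa3 was 0 in all BDL portions and 4.42 to 6.03 RPM after CCl4. The Uninjured portions measured 0, 0, 2.07, 0.0306 and 13.1 RPM, so only that of plate 5 lay above the CCl4 portions. Of the 322 Uninjured VSMC-like wells, 1 exceeded 100 RPM of Saa3, at 542 RPM. The HSC-like wells, all Uninjured on plate 6 in portions of 154 and 158 wells, held Serpina3g at 56.5 and 87.8 RPM and no read of Saa3 or Lcn2, the same order as in the Healthy HSC-like 10X cells.

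No other gene of the pathway lists passed in FB-like or VSMC-like wells. By position, the CCl4 FB-like portions were all above the Uninjured ones for 2 of 12 other acute phase genes, C3 (10851 to 12262 against 2986 to 8711 RPM) and Cfb (629 to 1370 against 50.7 to 192), for the Serpina3 neighbour Serpina3i, for Il33 (497 to 899 against 64.7 to 199), for 3 of 12 receptors (Osmr, Il1r1 and Tnfrsf1b), for Stat3 (316 to 425 against 184 to 260) as 1 of 15 signalling genes, for 2 of 9 chemokines, Cxcl2 and Cxcl5, for Timp1 of the 6 matrix genes, and for the lipoprotein receptor Scarb1. Over all genes tested in FB-like wells, 4.02% were so placed for CCl4. For BDL, only the matrix genes Timp1 and Lox of these lists were so placed in FB-like wells, where 1.13% of all genes were. In VSMC-like wells Osmr, Tnfrsf1a, Stat3 and Timp1 were higher in all BDL than in all Uninjured portions, and Nfkbia, Nfkbiz, Cebpb and Irf1 were lower. Over all genes tested in these wells, 1.37% were higher and 1.74% lower by this rule.

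The genes whose level followed that of Saa3 most closely over the 14 FB-like portions were Serpinb2 (Pearson r = 0.991 of log2(RPM + 1)), Dmkn (0.988), Tdo2 (0.980), Slpi (0.945) and Fth1 (0.943). For Lcn2 they were Hp (0.913), Ctsb (0.906), Stat3 (0.885), Pvrl2 (0.875) and Lsr (0.873). Over 14 points of HSC-like cluster and library in 10X, the closest genes to both were mainly ribosomal protein pseudogenes, led by Gm9843 (0.970 for Saa3 and 0.935 for Lcn2), and Saa3 was among the 5 closest to Lcn2 (0.930). The portions share plates and conditions and the 10X points share 3 libraries, so these values describe a common pattern over conditions.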

How the data were processed

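The 10X tables hold raw UMI counts that the authors obtained with Cell Ranger 2.1.0 on mm10 and deposited for every cell barcode called, without normalization. For Smart-seq2, the authors aligned reads with STAR, counted reads per RefSeq gene with rpkmforgenes, and deposited raw counts per well. From these deposited counts, CPM (UMIs of a gene per 1000000 UMIs) and RPM (reads per 1000000 reads) were computed here. Depth was 25965670 to 86664085 UMIs per 10X library and a median of 388663 to 484155 reads per well by portion, and it limits what levels near 0 can show.

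Cells with at least 300 genes and at most 30% mitochondrial UMIs were kept, and wells were left out with too few reads or genes or too large a spike-in share (a distance from the median of over 3 scaled absolute deviations). Doublets were called on simulated pairs and kept, and leaving them out was an alternative. Cells and wells were clustered by the Leiden method (leidenalg 0.10.2, Python 3.11.15) without the members, the pathway genes or the hepatocyte genes, and named from marker lists. Intervals are exact (Poisson for levels, binomial for shares, conditional for ratios, at 95%), and where a group had no UMI of a gene, its fold used a floor of 3 counts over that group. Genes in 10X comparisons had at least 1 CPM in either library.

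Reads were summed per portion with at least 5 wells of the subpopulation on plates 1 to 5. The main test was edgeR 4.0.16's quasi-likelihood test (R 4.3.3; TMM, filterByExpr, plate as a term, 3 conditions in a single fit), with Benjamini-Hochberg adjustment over all genes tested and a threshold of 0.05. It was tested on simulated data, where it recovered few of the changed genes at this number of portions. Plate 6 holds no injured wells and was left out of the fit. Orm1 was filtered out in FB-like wells, and Saa1, Saa2, Orm1 and Serpina3g in VSMC-like wells. The plate, which the labels give as shared by its wells, served as the block, and DESeq2 1.42.0, other normalizations, filters and left-out portions and plates were the alternatives.

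The members and all lists were chosen with earlier results of these data known. The text names the 9 members, the 3 hepatocyte genes, up to 2 genes of each pathway list with the largest 10X ratio at 50 CPM or more, up to 3 with the smallest adjusted p on the plates, the 5 genes most like Saa3 and Lcn2 in each assay, and marker genes. Genes named for the position of their portions, and those compared between B13 and HSC-like cells, were chosen after their values were seen.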

Additional observations from a re-analysis of the deposited data

Results flagged for a closer look

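Saa3 in the unnamed cluster W11, which no comparison used, measured 13955 RPM over its 19 CCl4 wells, all of which had a read, against 0.583 RPM over 4 Uninjured wells and 256 RPM over 4 BDL wells. Lcn2 measured 1045 RPM and Hp 703 RPM in the same CCl4 wells. W11 was led by the mesothelial genes Msln (4612 RPM), Upk3b (2789 RPM) and Upk1b (2327 RPM). Saa3 in cluster B13, also outside the comparisons, measured 45922 CPM at 6 weeks, with no B13 cell in the Healthy library.

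In 6 of 34 groups of portions checked, 1 portion stood far from the others of its condition. These were Saa1 in FB-like wells of the Uninjured portion of plate 5 (1.05 RPM), Lcn2 (1.42 RPM) and Serpina3g (9.38 RPM) in VSMC-like wells of the same portion, Serpina3g in VSMC-like wells of the first BDL portion of plate 2 (2.86 RPM), and Hp (29.8 RPM) and Serpina3g (1.21 RPM) in VSMC-like wells of the second CCl4 portion of plate 5. In each, a single well held 80.6% to 100% of the portion's reads of that gene, and the nearest other portion lay at 0 to 1.23 RPM.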

How the results depend on the processing

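The number of genes called depended strongly on the settings. Of 801 single gene results recomputed, 0 were counted as a change of sign, but only results whose main value was called could be so counted. Most of the 801 came from uncalled values, so this count says little about how stable the signs were. On the plates the only member called by the main test was Saa3 after CCl4 in FB-like wells. Its sign was the same in 26 of 26 settings. Signs of uncalled values did change. For BDL against CCl4 in FB-like wells, Hp and Serpina3n kept their sign in 22 of 26 settings and Lcn2 in 24. In VSMC-like wells Serpina3n kept it in 20. Against Uninjured, these genes kept their sign in 26 of 26 settings in the same wells. In the order BDL against Uninjured, CCl4 against Uninjured and BDL against CCl4, the edgeR test called 0, 2 and 0 genes in FB-like wells and 1, 0 and 0 in VSMC-like wells. Without the replicate block, that is with plate left out, it called 52, 66 and 3 in FB-like wells and 31, 0 and 1 in VSMC-like wells, and DESeq2 called 696, 336, 211, 385, 192 and 170. Without the low count filter the numbers were 239, 108, 36, 161, 22 and 16. Library size alone gave 2 for FB-like BDL, the well filter on log10 totals gave 2 for BDL and 4 for CCl4, and all retained wells gave 1 for FB-like CCl4, 0 for VSMC-like BDL and 1 for VSMC-like CCl4. Leaving out each portion gave 0 to 6 and 0 to 9 for FB-like BDL and CCl4, 0 to 8 for VSMC-like BDL and 0 to 1 for VSMC-like BDL against CCl4. Leaving out plate 1 or 2 gave 1 and 2 for FB-like BDL, and 5 and 23 for FB-like CCl4, which had 0 without plate 3 or plate 5. VSMC-like BDL had 0 without plate 1, 2, 3 or 5 and 7 without plate 4, where BDL against CCl4 had 1. The causes were not tested.

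Saa3 in CCl4 FB-like wells was called in 20 of 26 settings (adjusted p 3.59e-17 to 0.825). Several of these settings left out only portions or plates that enter this comparison through the shared dispersion alone. Leaving out plate 3, plate 5 or the Uninjured portion of either lost the call. Serpina3n and Lcn2 were called by DESeq2 and without the low count filter for both injuries, and without the replicate block Serpina3n was called for BDL and Lcn2 and Hp for CCl4. In 10X, Saa3 of HSC-like cells at 6 weeks was at least 278-fold Healthy after thinning and at least 7073-fold with B13 included, added after seeing the data. The Hp ratio at 72 h was 0.542 to 0.884 without doublets, without cells with hepatocyte RNA, without the cell of highest count or without cells of over 10 UMIs of the gene, on the other side of 1. With 1 library per 10X condition and 4 or 5 portions per plate condition, levels near 0 and differences between portions limit every statement, and paralogous members may share reads.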
